A study of Mus musculus with 22 samples.

Results

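The transcription factors *Foxf1*, *Tbx5*, *Gata4*, *Gata6*, *Nkx2-1*, *Pax8*, *Wt1*, *Hoxa10*, *Hoxd10* and *Meis2* were followed in pooled mouse organs, 10 of the 31053 entries of the count matrices. They were listed by name for their known ties to the position or origin of an organ. For each of them the share of positive barcodes, meaning droplets with at least 1 unique molecular identifier (UMI, 1 counted transcript) of the gene, was taken among fibroblast barcodes (with both *Col1a2* and *Dcn*), endothelial barcodes (with both *Pecam1* and *Cdh5*) and epithelial barcodes (with *Epcam*). All 10 were present in the matrices and had UMIs in tissue, from 783 for *Hoxd10* to 41179 for *Meis2*.

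Organs keep a record of the germ layer and body position they arose from in the transcription factors that their cells continue to transcribe. FOXF1 is a mesodermal forkhead factor required for lung vessels, TBX5 marks anterior mesoderm of heart, forelimb and lung, and GATA4 and GATA6 act in heart, liver sinusoids, stomach and gut. NKX2-1 is needed to form lung and thyroid epithelium, PAX8 for kidney, thyroid and reproductive tract epithelium, WT1 for kidney, gonad and mesothelium, HOXA10 and HOXD10 for posterior structures including the reproductive tract, and MEIS2 is a partner of HOX and PBX proteins.

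The study asked whether loss of *Nalcn*, a sodium leak channel gene, releases cells into the blood of mice with and without tumours. Each tissue library mixed cells of kidney, liver, lung and stomach with epididymis in 7 libraries (males) or uterus in 4 (females), taken from aged mice. All mice carried Prom1-CreERT2 and Rosa26ZSG, a tamoxifen-inducible recombinase driven from the *Prom1* locus and a green lineage tag. The wt group had 5 libraries with no modified *Nalcn* allele in the strain label (replicates 1 to 3 with epididymis, at 571, 571 and 608 days, and 4 and 5 with uterus, at 611 and 654 days), the het group had 2 labelled Nalcn-het (both with epididymis, at 551 days), and the null group had 2 labelled Nalcn-null (replicate 2 with epididymis at 552 days, replicate 3 with uterus at 611 days, the latter by its strain label alone). In 2 more libraries, 1 with epididymis at 610 days and 1 with uterus at 647 days, title and strain label gave different genotypes, and these entered no genotype comparison. Recombination is expected only in *Prom1*-expressing cells and their descendants, so a null library is not a sample of null cells. Nothing in the labels tied a droplet to an organ, since the antibody tags that marked organs were not used here. The 10 libraries of sorted ZSG+ blood cells of mice without tumours (ntCZC; 2 wt, 4 het, 4 null, 551 to 649 days) and 1 library of blood mononuclear cells (PBMC, wt, 120 days) served as a comparison.

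The tissue libraries held 176676 barcodes and 525749218 UMIs, 8571019 to 139793927 per library. After removal of poor barcodes and likely doublets 77967 remained, of which 1564 were fibroblast, 8891 endothelial and 5693 epithelial, and 285 that met more than 1 class were left out. The removed barcodes held 38.3% (*Tbx5*) to 67.9% (*Hoxd10*) of the tissue UMIs of the 10 genes. For *Pax8* this was 57.7%, and for *Hoxa10* 2879 of 4429 UMIs, so shares describe the barcodes that were kept. Of the markers that did not define the classes, the summed endothelial check list lay at 2201 to 4910 CPM (UMIs scaled to a common total per sum) in endothelial sums and at most 190 CPM in the other classes, and the fibroblast list at 5503 to 9536 CPM in fibroblast sums and at most 837 CPM in the others. The epithelial class was less clean: its check list lay at 1397 to 3199 CPM in epithelial sums, but the leukocyte list lay there at 1062 to 6912 CPM. The 5 epithelial check genes were each detected in 37.7% (*Cdh1*) to 51.7% (*Krt8*) of epithelial barcodes, and the 5 leukocyte genes in 33.4% (*Coro1a*) to 55.9% (*Cd74*). *Ptprc*, the common leukocyte gene, was detected in 39.5% of epithelial, 13.1% of endothelial and 11.8% of fibroblast barcodes. Leukocyte barcodes (*Ptprc* with none of the 5 class genes, 28304) served as the background. This background holds free RNA and any transcripts of the leukocytes themselves, which were not told apart. *Nalcn* itself had 0 to 18 UMIs per library and did not follow the genotype labels: it lay at 0 to 0.204 CPM in wt, 0.104 to 0.158 CPM in het and 0.272 to 0.386 CPM in null libraries, both null ones above every wt and het one. Counts of 3′ ends do not show whether the deleted part of the gene was present, and genotypes are given as labelled throughout. Null replicate 3 went against its labels: it is labelled uterus and female, yet it held the highest level of the epididymis marker list (16964 CPM, against 1.56 to 4.78 CPM in the other uterus libraries) and carried both Xist (1347 CPM) and transcripts of Y-linked genes (31.2 CPM). Results are therefore also given without it. The wt replicate 5 library held only 10 fibroblast, 29 endothelial and 29 epithelial barcodes, and its fibroblasts entered no fit. Libraries shared at most 0.900% of the barcodes of the smaller library.

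Promoters of 5 of the 10 members (*Pax8*, *Hoxd10*, *Meis2*, *Hoxa10* and *Nkx2-1*) matched by symbol in RefSeq's table for GRCm38.p6. The 250 bases before the start are shown for *Nkx2-1* and *Pax8*, the members that were lower in both other classes than in epithelium, and for the 2 Hox members, in lower case and 5′ to 3′. Capitals mark matches on either strand to 8 motifs. The forkhead motif was searched as GTAAACA (in 3.17% of all 32851 promoters of that length), the T-box motif as GGTGTGA (3.33%), the GATA motif as AGATAA (9.99%), the NKX2 motif as CTCAAG (13.3%) and the MEIS motif as TGACAG (15.9%). The general promoter elements were the GC box, searched as GGGCGG (32.7%), the CCAAT box by its 5 letters (33.8%), and the TATA box as TATAAA (12.4%). No motif lies within another of the 8.
Nkx2-1 (chr12:56536909-56537158, minus strand): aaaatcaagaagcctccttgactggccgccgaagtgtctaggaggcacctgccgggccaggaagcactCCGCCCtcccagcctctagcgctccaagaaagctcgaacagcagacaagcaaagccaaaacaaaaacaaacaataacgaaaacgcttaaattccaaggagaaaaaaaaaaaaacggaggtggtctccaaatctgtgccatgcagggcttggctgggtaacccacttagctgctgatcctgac
Pax8 (chr2:24475600-24475849, minus strand): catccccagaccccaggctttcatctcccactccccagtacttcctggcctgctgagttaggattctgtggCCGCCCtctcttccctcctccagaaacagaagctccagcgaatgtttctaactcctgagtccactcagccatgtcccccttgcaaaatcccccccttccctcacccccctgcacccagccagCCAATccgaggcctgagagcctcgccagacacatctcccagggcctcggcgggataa
Hoxa10 (chr6:52240855-52241104, minus strand): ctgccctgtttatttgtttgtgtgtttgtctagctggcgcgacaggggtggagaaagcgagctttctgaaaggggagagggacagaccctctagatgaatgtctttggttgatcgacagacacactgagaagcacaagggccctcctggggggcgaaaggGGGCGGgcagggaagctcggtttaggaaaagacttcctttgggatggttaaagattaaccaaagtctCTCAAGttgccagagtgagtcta
Hoxd10 (chr2:74691641-74691890, plus strand): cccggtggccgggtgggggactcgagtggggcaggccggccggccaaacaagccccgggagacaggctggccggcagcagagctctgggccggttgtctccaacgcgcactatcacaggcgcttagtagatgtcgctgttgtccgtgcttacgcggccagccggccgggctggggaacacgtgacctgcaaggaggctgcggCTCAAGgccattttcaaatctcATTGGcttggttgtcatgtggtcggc

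In those windows the 2 epithelial genes held only general elements, a GC box each and in *Pax8* also a CCAAT box. The *Hoxd10* window held the NKX2 letters and a CCAAT box, and the *Hoxa10* window shown, which lies directly before the annotated start of the gene, the NKX2 letters and a GC box. RefSeq lists a second *Hoxa10* start inside the gene, whose window (chr6:52234940-52235189) held a CCAAT box and a TATA box but not the NKX2 letters, with a CpG ratio of 0.913. The ratio of observed to expected CpG was 0.755 for *Hoxd10*, 0.564 for *Nkx2-1*, 0.458 for the *Hoxa10* window shown and 0.314 for *Pax8*, with a median of 0.373 over all promoters. A match is a description of letters and not of binding.

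The 10 genes lie on 7 chromosomes of the mm10 build, in the GENCODE M21 annotation. *Foxf1* (chr8:121084386-121088144, plus strand) overlaps the same-strand gene model Gm20388, which is counted in the same matrices, and the antisense model Gm27530, which is not, so that reads may be split between both. *Gata6* (chr18:11052064-11085635) and *Nkx2-1* (chr12:56531958-56536908) overlap antisense models that are also counted. *Pax8* (chr2:24420560-24475599), *Wt1* (chr2:105126529-105173616), *Hoxd10* (chr2:74691924-74695105) and *Meis2* (chr2:115863064-116065839) share chromosome 2 at separate loci. *Tbx5* (chr5:119832668-119885219), *Gata4* (chr14:63198922-63271692) and *Hoxa10* (chr6:52231197-52240854) overlap no other gene model.

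The 10 genes differed by cell class. *Meis2* had the highest share of positive barcodes in the endothelial and the fibroblast class, followed by *Foxf1* in endothelial and by *Wt1* and *Gata6* in fibroblast barcodes, also after thinning to equal depth. *Pax8* had the highest share in epithelial barcodes, the one class in which *Pax8* and *Nkx2-1* exceeded the background. *Tbx5*, *Gata4*, *Hoxa10* and *Hoxd10* were detected in under 4% of the barcodes of each class. Of 30 shares (10 genes in 3 classes), 24 had a 95% Clopper-Pearson interval above that of the leukocyte barcodes, at unequal depth. The 6 that did not were *Nkx2-1* and *Pax8* in fibroblast and in endothelial barcodes, *Wt1* in endothelial and *Tbx5* in epithelial barcodes, and these are read as background. At equal depth the intervals of *Foxf1* and *Hoxa10* in epithelial, *Hoxd10* in endothelial and *Gata4* in fibroblast barcodes no longer lay above the leukocyte interval either. Intervals cover counting error only.

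**Figure D1:**
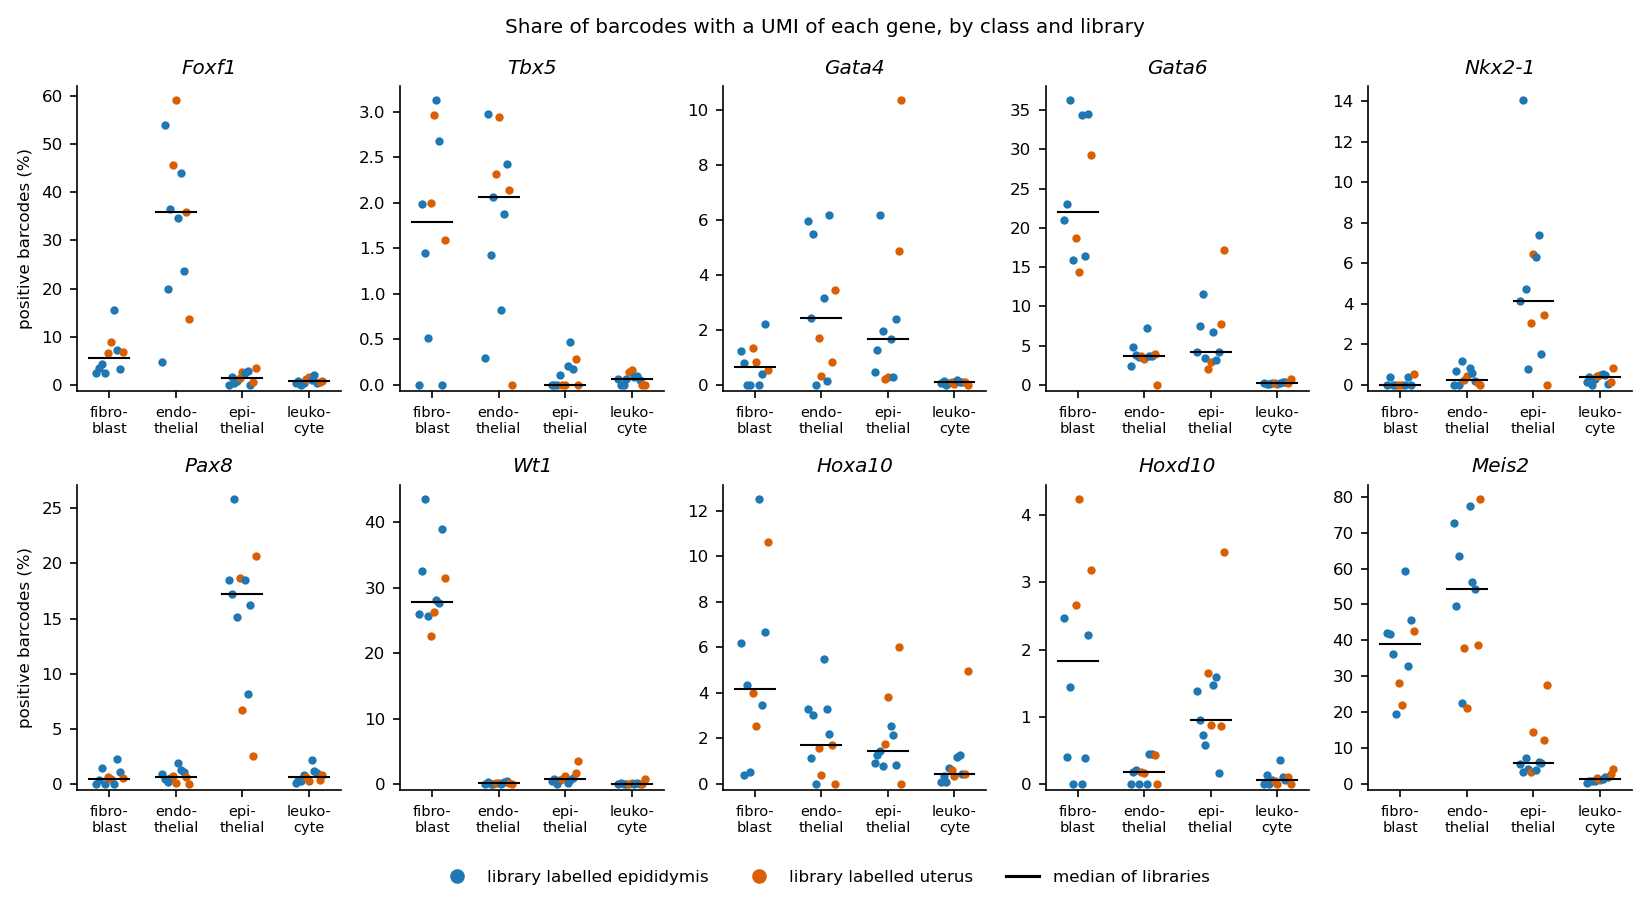
Share of barcodes (%) with at least 1 UMI of each of the 10 genes, by class; each point is 1 tissue library with at least 20 barcodes of the class, coloured by its labelled pool, and bars are medians. *Foxf1* reaches 59.1% in endothelial barcodes and stays under 16% in fibroblasts, *Wt1* lies at 22.7% or above in every fibroblast point, and *Pax8* is high only in epithelial barcodes.

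Among mesodermal factors, *Foxf1* was positive in 42.6% of endothelial barcodes (interval 41.6 to 43.7), with 4.76%, 36.0% and 59.1% as the lowest, median and highest of 11 libraries. In fibroblasts it was positive in 5.88% (2.47%, 5.51% and 15.6% over 10 libraries), in epithelial barcodes in 1.55%, and in leukocyte barcodes in 1.08%. The lowest endothelial library thus fell below the highest fibroblast one, while the medians lay far apart. For a comparison at equal depth barcodes were thinned to 1000 UMIs, and those below that number (200 fibroblast, 1234 endothelial, 183 epithelial and 4911 leukocyte) were left out. After this thinning the epithelial share was 0.236% and the leukocyte share 0.470%, so epithelial *Foxf1* did not exceed the background at equal depth. *Tbx5* was positive in 2.17% of endothelial, 1.79% of fibroblast and 0.158% of epithelial barcodes.

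*Wt1* was positive in 29.2% of fibroblast barcodes (22.7%, 27.9% and 43.5% as the lowest, median and highest of 10 libraries). It was positive in 0.720% of epithelial and 0.157% of endothelial barcodes, and no library of either class reached the lowest fibroblast library. *Gata6* was positive in 21.5% of fibroblast barcodes (14.4%, 22.0% and 36.2%). Its shares of 4.73% in epithelial and 4.02% in endothelial barcodes were also above the leukocyte share of 0.279%. *Gata4*, its paralogue, was rarer everywhere, at 1.82% of endothelial, 1.60% of epithelial and 0.703% of fibroblast barcodes.

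*Meis2* had the most UMIs of the 10 genes and was positive in 45.7% of endothelial barcodes (21.3%, 54.3% and 79.3% over 11 libraries), 33.8% of fibroblast barcodes (19.5%, 38.9% and 59.4%) and 5.94% of epithelial ones. The endothelial and fibroblast libraries overlapped. *Hoxa10* was positive in 3.96% of fibroblast, 2.04% of endothelial and 1.93% of epithelial barcodes, where leukocytes gave 0.668%. *Hoxd10* reached 1.73%, 0.236% and 1.09% in the same order.

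*Pax8* was positive in 14.4% of epithelial barcodes (2.58%, 17.2% and 25.8% over 11 libraries) and in 0.767% of fibroblast and 0.720% of endothelial barcodes, at the leukocyte share of 0.742%. *Nkx2-1* was positive in 5.20% of epithelial barcodes (0%, 4.17% and 14.0%). The library at 0% is wt replicate 5, whose 29 epithelial barcodes allow a share of up to 10.3%. Epithelial barcodes were deeper (median 4894 UMIs) than fibroblast (2220) and endothelial ones (1956). After thinning, *Pax8* was still the most frequent of the 10 genes in epithelium at 3.23%, followed by *Meis2* at 1.96% and *Nkx2-1* at 1.52%.

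To compare the classes over libraries, counts were summed per library and class and tested across all genes with edgeR's quasi-likelihood test (32 sums, 13602 genes, Benjamini-Hochberg adjusted p under 0.05). Between fibroblast and endothelial sums 45.2% of all genes were called, and 7 of the 10 members. Some members passed the filter on low counts through the class where they were frequent. *Nkx2-1*, for example, had 3 UMIs in fibroblast and 565 in epithelial barcodes. The counts of members called in the class comparisons are therefore no result about the members as a set. *Wt1* was higher in fibroblasts by a log2 fold change of 7.64 (SE 0.38, adjusted p = 6.2e-15), *Gata6* by 2.81 (SE 0.23, adjusted p = 1.07e-10) and *Hoxd10* by 2.68 (SE 0.60, adjusted p = 0.000606). *Foxf1* was lower in fibroblasts, at -3.75 (SE 0.25, adjusted p = 2.45e-12), as was *Meis2*, at -1.53 (SE 0.34, adjusted p = 0.000493). *Hoxa10* at 1.17 (adjusted p = 0.0493) and *Gata4* at -1.84 (adjusted p = 0.0347) sat near the threshold, and each lost the call in several alternatives, *Hoxa10* also without null replicate 3 (1.08, adjusted p = 0.11). *Tbx5*, *Nkx2-1* and *Pax8* were not called.

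Between fibroblast and epithelial sums 53.9% of all genes and 9 of the 10 members were called, with the same limit on such counts. Higher in fibroblasts were *Wt1* (log2 fold change 6.66), *Tbx5* (4.11), *Foxf1* (3.23), *Gata6* (3.20), *Meis2* (3.14), *Hoxa10* (1.81) and *Hoxd10* (1.56), and lower were *Nkx2-1* (-4.48) and *Pax8* (-3.30). *Gata4* was not called. Without null replicate 3 the *Hoxd10* difference was 1.47 (adjusted p = 0.0534). Between endothelial and epithelial sums 69.2% of all genes and 6 of the 10 members were called. *Foxf1* (6.97, SE 0.26), *Tbx5* (4.74, SE 0.43) and *Meis2* (4.67, SE 0.37) were higher in endothelial sums, and *Pax8* (-3.78, SE 0.29) and *Nkx2-1* (-3.25, SE 0.33) were lower. The sixth, *Gata4* (0.93, adjusted p = 0.0424), lost its call without null replicate 3 (0.72, adjusted p = 0.11).

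**Figure D2:**
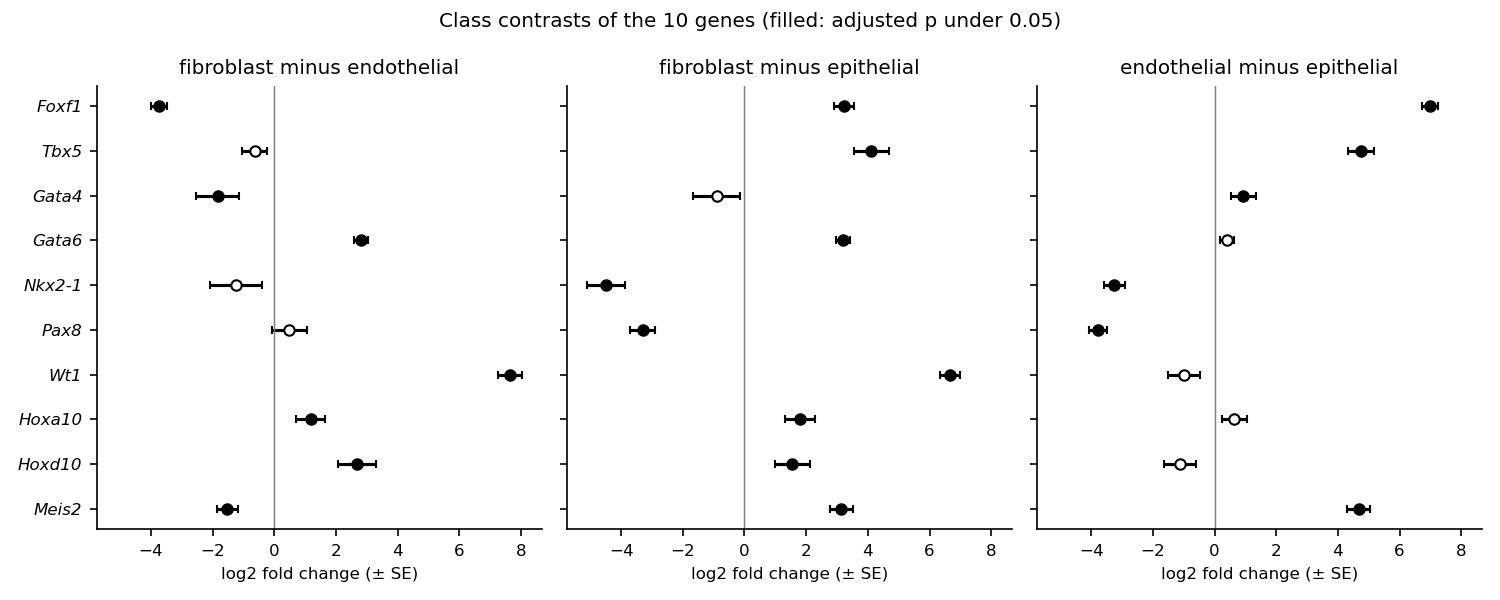
Log2 fold change (x axis, ± SE, edgeR) of the 10 genes (y axis) between classes summed per library; filled points passed an adjusted p of 0.05. *Wt1* lies near 7 on the fibroblast side of both fibroblast comparisons, *Foxf1* is negative against endothelial and positive against epithelial sums, and *Pax8* and *Nkx2-1* are lower wherever epithelium is the second class.

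The members were set in the wider families they belong to, 37 related organ and lineage factors and 26 other Hox genes that passed the filter on low counts in the class comparisons. Between fibroblast and endothelial sums, 12 related factors were higher in fibroblasts and 10 lower. *Osr1*, a factor of intermediate mesoderm (6.42), and *Zfpm2*, a GATA cofactor (3.74), were among the higher, and the endothelial factors *Sox18* (-6.04) and *Sox17* (-6.21) among the lower. The median related factor lay at 0.24 and the median of all genes at -0.03. Of the Hox genes 11 were higher, led by *Hoxc6* (4.81) and *Hoxc8* (5.24), and 7 were lower, led by *Hoxb5* (-2.30) and *Hoxb4* (-1.80). Hox genes of the C cluster thus headed the fibroblast side, and *Hoxb5*, *Hoxb4* and *Hoxa5* (-1.11) the endothelial side.

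Between fibroblast and epithelial sums 14 Hox genes were higher and 10 lower, with *Hoxa5* (2.86) and *Hoxb8* (-4.32) at the head of each side. Of the related factors 17 were higher and 11 lower, including *Tcf21*, a mesenchymal factor (7.27), and *Foxa1*, an endodermal one (-4.36). Between endothelial and epithelial sums 19 related factors were higher, with *Sox18* at 6.66, and 15 were lower, with *Foxj1*, the factor of motile cilia, at -5.00 and *Pax2*, the close relative of *Pax8*, at -4.76. The Hox genes split 8 to 8, with *Hoxa5* (3.97) at the head of the endothelial side and *Hoxb8* at the head of the other.

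Over the 32 class sums, *Foxf1* was closest to *Ramp2* (Pearson's r 0.962 of log2 CPM) and *Acvrl1* (0.954), *Wt1* to *Igfbp6* (0.964) and *Sfrp4* (0.964), *Tbx5* to *Itga8* (0.921), *Gata6* to *Pkia* (0.929), *Pax8* to *Fermt1* (0.930) and *Nkx2-1* to *Cfap100* (0.896). The closest genes of the rarer *Gata4* (*Gpatch8*, 0.701), *Hoxa10* (*1600012H06Rik*, 0.766) and *Hoxd10* (*A730046J19Rik*, 0.734) were less alike. The sums share libraries and classes, so these values describe the pattern and are no test.

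To read the organ of origin, barcodes were called by marker lists that hold none of the 10 genes: at least 2 genes of an organ's list and more than of any other list. Endothelial barcodes fell into 5415 with a lung call, 474 with a liver call and 3002 with neither. Lung-call endothelium was positive for *Foxf1* in 66.7% of barcodes, with 40.0%, 60.0% and 81.1% as the lowest, median and highest of 11 libraries. In liver-call endothelium the share was 1.48% (0%, 1.67% and 5.26% over 8 libraries), and without a call it was 5.80%. No library of the liver call came near any of the lung call. Over all endothelial barcodes *Foxf1* ran from 4.76% to 59.1%, and the libraries at these ends differed in lung fraction. In the epididymis library of unclear genotype, the lowest, 8.93% of endothelial barcodes had a lung call. In the uterus library of unclear genotype, the highest, 80.5% had one. The part of the lung fraction in this spread was not tested.

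*Gata4* was the reverse. It was positive in 28.3% of liver-call endothelial barcodes (10.5%, 25.5% and 39.3% as the lowest, median and highest of 8 libraries) and in 0.111% of lung-call ones, where no library passed 0.645%. *Meis2* was less frequent in lung-call barcodes (30.5%) than in liver-call ones (66.7%) or those with no call (69.8%). Median depths were 1933, 2107.5 and 1956.5 UMIs for the lung call, the liver call and no call. Thinning kept the order of the *Meis2* shares, at 16.2%, 41.4% and 58.9%. *Tbx5* was positive in 3.43% of lung-call barcodes and in 0 of 474 liver-call ones, which allows a share of up to 0.633%. A smooth muscle and pericyte list (*Acta2*, *Myh11*, *Tagln*, *Rgs5* and *Cspg4*) had at least 2 genes in 140 endothelial barcodes. *Tbx5* was positive in 15.7% of these and in 1.95% of the others. Those 140 were deeper (median 6385 UMIs, against 1933), and the part of mixed barcodes in the *Tbx5* share was not tested. *Hoxa10* lay mostly outside both calls, at 4.56% of barcodes without a call against 0.757% with a lung and 0.633% with a liver call. *Gata6* was positive in 4.64% of lung-call and 1.05% of liver-call barcodes.

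With counts summed per library and call (19 sums, 9210 genes, library as a term), 30.3% of all genes were called between lung and liver endothelium. Of the 10 members 3 passed the filter on low counts, and all 3 were called. *Gata4* had 6 positive lung-call barcodes and *Foxf1* 7 positive liver-call ones, so each passed through the call where it was frequent. That all 3 were called is therefore no result about the members as a set. *Foxf1* was higher in lung by a log2 fold change of 6.31 (SE 0.32, adjusted p = 1.12e-23), while *Gata4* was lower by -7.44 (SE 0.35, adjusted p = 8.19e-25) and *Meis2* by -1.28 (SE 0.16, adjusted p = 1.69e-09). Without null replicate 3 they lay at 6.26, -7.42 and -1.29. Of 19 related factors 9 were higher in lung and 7 in liver. *Tbx3* (5.61), *Gata2* (1.97) and *Sox17* (1.56) headed the lung side, and *Maf* (-5.12), *Nr2f2* (-3.06), the venous factor, and *Nr2f1* (-2.15) the liver side. Of 9 Hox genes 3 were called, *Hoxa5* higher (0.75) and *Hoxb7* (-1.69) and *Hoxb3* (-1.02) lower.

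**Figure D3:**
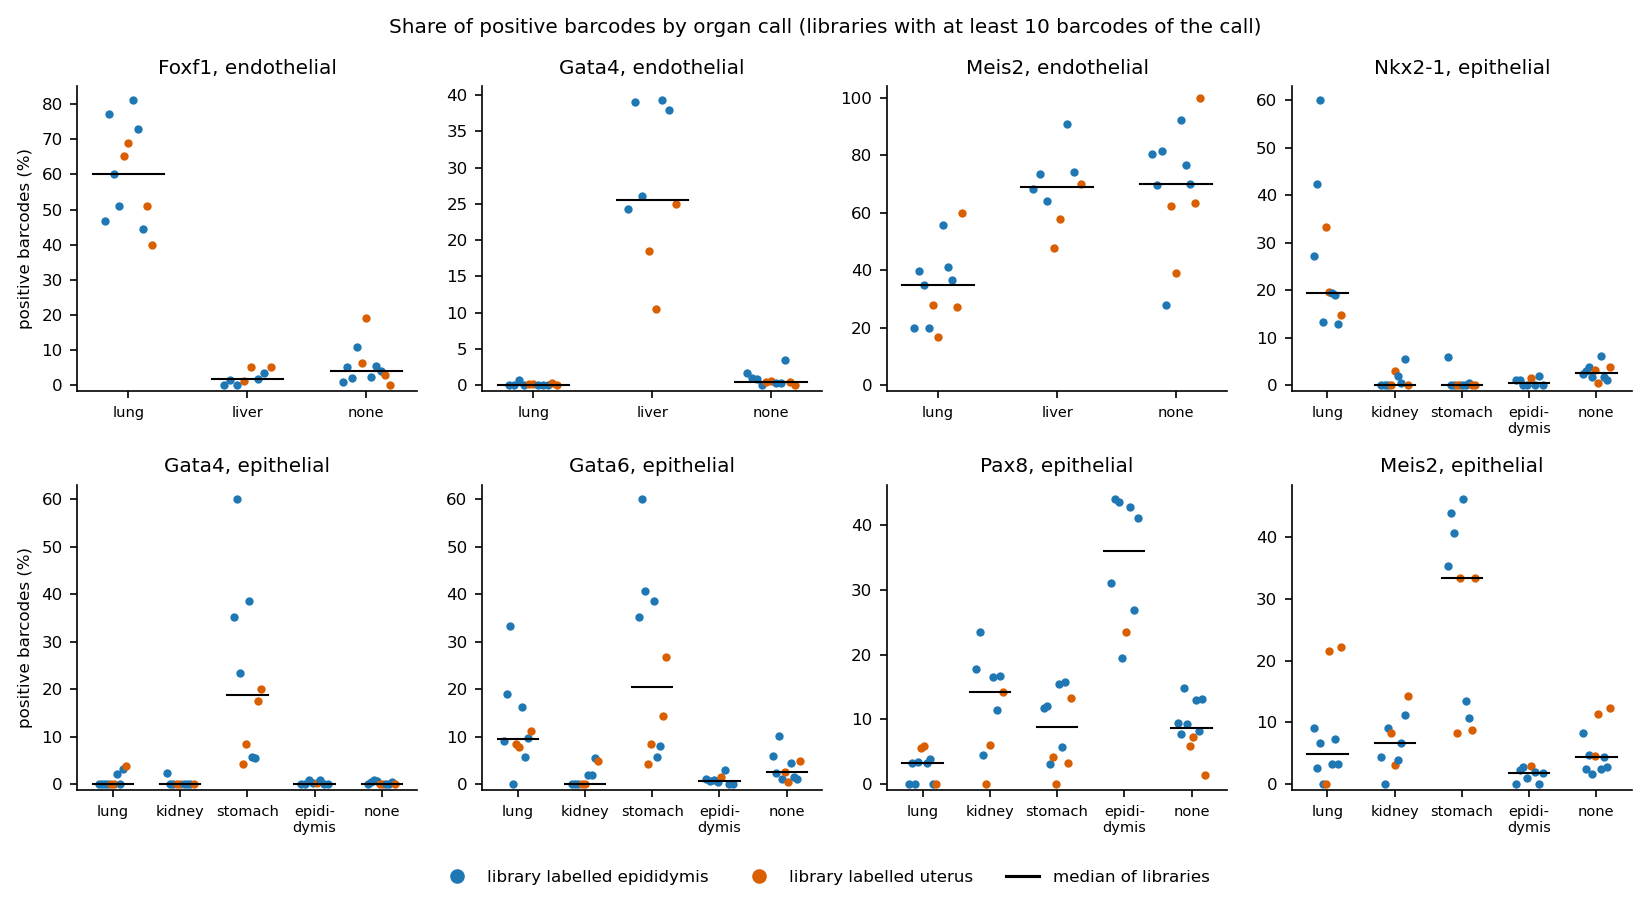
Share of positive barcodes (%) by organ call for *Foxf1*, *Gata4* and *Meis2* in endothelial barcodes and for 5 genes in epithelial barcodes; each point is 1 library with at least 10 barcodes of the call, and bars are medians. *Foxf1* and *Gata4* occupy opposite endothelial calls, and *Nkx2-1*, *Gata4* and *Pax8* peak in the lung, stomach and epididymis calls.

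Epithelial barcodes gave 915 lung, 490 kidney, 540 stomach and 1790 epididymis calls, with 1958 in none. Uterus and liver epithelium had no list, so comparisons with the mean of the other organs leave both out. Barcodes without a call made up 60.2% of epithelium in wt replicate 4 and 56.6% in the uterus library of unclear genotype. *Nkx2-1* was positive in 24.8% of lung-call barcodes (12.9%, 19.5% and 60.0% as the lowest, median and highest of 10 libraries), 2.50% of those with no call, and 1.02%, 0.370% and 0.726% of the kidney, stomach and epididymis calls. Every library's lung-call share was above that of every library in the other 3 calls. Summed per library and call (37 sums, 11523 genes), 26.6% of all genes were called between lung and the mean of the other organs. Of the members 6 passed the filter on low counts and 4 were called. *Nkx2-1* and *Gata4* passed it through the lung and the stomach call, where they were frequent, so such counts are no result about the set. *Nkx2-1* (5.61, SE 0.32, adjusted p = 4.47e-15) and *Gata6* (2.16, SE 0.37, adjusted p = 2.49e-05) were higher in lung, and *Pax8* (-2.39, SE 0.35, adjusted p = 1.82e-06) and *Hoxa10* (-1.49, SE 0.50, adjusted p = 0.0258) were lower, of which *Hoxa10* lost its call in several alternatives. Among related factors *Sox2* (4.31), *Foxj1* (3.46) and *Foxa2* (3.02) were higher too. Of 14 other Hox genes 12 were lower in lung, led by *Hoxd8* (-2.77) and *Hoxd9* (-2.48), and none was higher. Their median was -2.09 beside -0.0018 for all genes.

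In stomach-call barcodes *Meis2* was the most frequent of the 6 genes tested, at 18.9% (4.56% after thinning), ahead of *Gata6* and *Gata4* (2.47% and 3.23% after thinning). *Gata4* was positive in 14.4% (4.17%, 18.8% and 60.0% as the lowest, median and highest of 10 libraries) and in at most 0.437% of any other call. *Gata6* was positive in 17.2% of stomach-call barcodes (4.17%, 20.5% and 60.0%), 10.5% of lung-call ones and 1.63% and 0.950% of the kidney and epididymis calls. After thinning its stomach and lung shares, 2.47% and 2.33%, were close together. Het replicate 2 was the highest library for both GATA genes, with 25 stomach-call barcodes. The test of stomach against the mean of the other organs called 13.9% of all genes and 4 of 6 members. *Gata4* (6.44, SE 0.37, adjusted p = 7.29e-15), *Gata6* (3.65, SE 0.35, adjusted p = 1.05e-09) and *Meis2* (2.51, SE 0.41, adjusted p = 2.82e-05) were higher. *Nkx2-1* was lower (-2.30, SE 0.74, adjusted p = 0.032), a call lost without null replicate 3 (-1.97, adjusted p = 0.0967). *Foxa3* (6.16), *Gata5* (6.07) and *Hnf4a* (2.36), factors of gut endoderm, were the related genes with the smallest p on the same side.

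*Pax8* was positive in 27.7% of epididymis-call barcodes (19.4%, 36.0% and 44.0% over 8 libraries), 13.3% of kidney-call ones (0%, 14.3% and 23.5% over 9), 10.0% of stomach-call ones and 3.50% of lung-call ones. After thinning to 1000 UMIs the epididymis and kidney shares lay close together, at 5.55% and 4.55%, with 2.47% for stomach and 0.444% for lung. The 8 libraries with an epididymis call included null replicate 3, at 23.6% of 624 barcodes. The epididymis test called 37.0% of all genes and 5 of 6 members. *Pax8* was higher (2.12, SE 0.26, adjusted p = 7.27e-08), and *Gata6* (-3.25), *Gata4* (-2.73), *Meis2* (-2.56) and *Nkx2-1* (-2.32) were lower, of which *Gata4* lost its call in 3 alternatives. Without null replicate 3, *Pax8* lay at 2.08, *Gata6* at -3.74, *Gata4* at -3.03, *Meis2* at -2.95 and *Nkx2-1* at -3.04, all 5 still called. Of the Hox genes 10 of 14 were higher and none lower, led by *Hoxb7* (3.11), *Hoxb8* (2.81) and *Hoxb6* (2.73), while *Hoxa10*, a member, was not called. *Emx2* (2.76), needed for the urogenital tract, was higher as well. With RLE scaling the median of all genes in this comparison shifted by -0.108.

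The test of kidney-call barcodes called 7.13% of all genes and 1 of 6 members, *Gata6*, which was lower (-2.56, SE 0.62, adjusted p = 0.00803). *Pax8* lay at 0.66 against the mean of the other organs (adjusted p = 0.181). *Lhx1*, a factor of nephron formation, was higher (4.04), as were *Hoxd8* (1.71) and *Hoxa7* (1.82). With RLE scaling in place of TMM, the kidney calls split 478 higher to 330 lower instead of 369 to 453. *Hoxd10*, which did not pass the filter here, was positive in 4.08% of kidney-call barcodes, 1.56% of epididymis-call ones and 0.109% of lung-call ones (0.826%, 0.229% and 0% after thinning). Barcodes removed as poor or as likely doublets held 57.7% of the tissue UMIs of *Pax8* and 67.9% of those of *Hoxd10*. With all deposited barcodes the kidney test called more genes. The part of the removed barcodes in the kidney result was not tested.

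Fibroblasts were scored against lung and liver lists only, and 161 of 1564 had a lung call and 17 a liver call. Since no library reached 10 liver-call fibroblasts, no test was made. *Tbx5* was positive in 6.83% of lung-call fibroblasts (3.57% to 11.5% over 5 libraries) and in 1.15% of those with no call, and *Foxf1* in 11.8% and 5.12%. *Wt1* was positive in 18.0% and 30.3%. Lung-call fibroblasts were deeper (median 2759 UMIs, against 2113 with no call). After thinning the shares were 1.92% and 0.588% for *Tbx5* and 5.13% and 17.0% for *Wt1*, while those of *Foxf1*, 2.56% and 2.69%, were close together.

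A minority of fibroblast barcodes, 251 of 1564, held at least 2 genes of the mesothelium list (*Msln*, *Upk3b*, *Lrrn4*, *Muc16* and *Upk1b*), genes of the cell layer that lines body cavities and organ surfaces. Among these 251 *Wt1* was positive in 78.9%, *Gata6* in 58.6% and *Meis2* in 54.6%. Among the other 1313 the shares were 19.6%, 14.4% and 29.8%. Those 251 were also deeper, with a median of 3135 UMIs beside 2024. The podocyte list, genes of another known *Wt1* site, had no fibroblast barcode with 2 of its genes. The smooth muscle and pericyte list had 72, with *Wt1* in 52.8%, *Gata6* in 37.5% and *Meis2* in 56.9%. The shares without 2 of its genes were 28.0%, 20.7% and 32.6%, so the rise was not particular to the mesothelium list. Those 72 were deeper too, with a median of 4685 UMIs beside 2147. A barcode with fewer than 2 list genes may still be of the listed cell type at this depth, and the part of these cell types in the *Wt1* share was not tested.

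Pairs of the 10 genes were compared with the number of double-positive barcodes that their shares give within each library. In fibroblasts *Gata6* and *Wt1* met in 190 barcodes where 102 were calculated (ratio 1.87, above 1 in 10 of 10 libraries), *Gata6* and *Meis2* in 173 (1.44, 10 of 10) and *Wt1* and *Meis2* in 217 (1.38, 10 of 10). In endothelial barcodes *Foxf1* met *Tbx5* 1.71 times as often as calculated (above 1 in 9 of 9 libraries that allowed a ratio), but *Gata4* at 0.154, *Hoxa10* at 0.327 and *Meis2* at 0.769, the last below 1 in 11 of 11 libraries. In epithelial barcodes *Nkx2-1* met *Pax8* in 6 barcodes where 41.5 were calculated (0.145, below 1 in 9 of 9) and *Gata6* in 79 where 15.9 were (4.98, above 1 in 4 of 4). *Pax8* and *Hoxd10* met at 3.75 (4 of 4). Depth differs between barcodes of a library and can raise such ratios. Each library also mixes organs, so genes of different organ calls can fall below 1 by mixture alone. Genes of the same call can likewise rise above 1. The ratios are therefore no test of a link between genes within a cell type, and the part of organ mixture was not tested. After thinning to 1000 UMIs the ratio of *Gata6* and *Wt1* was 1.64 and that of *Gata6* and *Meis2* 1.43, while *Wt1* and *Meis2* came to 1.09 and *Foxf1* and *Tbx5* to 1.11. *Foxf1* stayed below 1 with *Gata4* (0.274), *Hoxa10* (0.424) and *Meis2* (0.534).

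The labelled pools, epididymis against uterus, were compared over libraries. Epididymis libraries are all labelled male, at 551 to 610 days, and uterus libraries all female, at 611 to 654 days. Pool, sex and age therefore cannot be told apart in any of these comparisons. No member was called in the edgeR tests of pools, where 0.0199% of fibroblast, 0.0627% of endothelial and 0.0158% of epithelial genes were called. An unadjusted edgeR p under 0.05 was found for 351 of 5030 (fibroblast), 790 of 11172 (endothelial) and 1093 of 12651 genes (epithelial). Of 15 tests on members 2 had such a p, and DESeq2 called none. The 2 were *Foxf1* in fibroblasts (log2 fold change -1.31, SE 0.41, adjusted p = 0.48) and *Meis2* in epithelium (-1.70, SE 0.55, adjusted p = 0.491). Without null replicate 3 no member was called by edgeR either. In epithelium *Meis2* then lay at -2.11 (SE 0.46, edgeR adjusted p = 0.0617) and *Wt1* at -2.32 (SE 0.81, edgeR adjusted p = 0.144). *Foxf1* in fibroblasts was then not tested. The difference of the pool effect between classes was not called for any member either (0.0221% of all genes for fibroblast against endothelial, 0% for fibroblast against epithelial).

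The shares themselves were compared by an exact two-sided permutation test over libraries, unadjusted, in which 7 against 4 libraries cannot go below p = 0.00303. Of 30 comparisons 2 had p under 0.05, about the number that chance gives at this threshold. *Wt1* was positive in 0.507% ± 0.309 (SD, n = 7) of epithelial barcodes with epididymis and 1.76% ± 1.20 (n = 4) with uterus (exact permutation p = 0.00909), and in 2.11% with uterus without null replicate 3 (p = 0.00833). The uterus mean also held wt replicate 5, at 3.45% from 1 of 29 barcodes, and without it was 1.20% (exact permutation p = 0.0333). *Meis2* was positive in 5.23% ± 1.36 (n = 7) and 14.4% ± 10.0 (n = 4, exact permutation p = 0.0242). Leaving out null replicate 3 raised the uterus mean of *Meis2* to 18.1% (exact permutation p = 0.00833), and leaving out wt replicate 5, at 27.6% of 29 barcodes, lowered it to 9.99% (exact permutation p = 0.0667). The p was also 0.0667 without wt replicate 4 and without the uterus library of unclear genotype (exact permutation). The epithelial *Wt1* groups still overlapped, since null replicate 3 lay at 0.705% and the highest epididymis library at 0.853%. The mesothelium list lay at 13.8 to 134 CPM in epithelial sums with epididymis and 81.2 to 355 CPM with uterus, ranges that overlap, and its part in these differences was not tested. *Pax8* in epithelium lay at 17.1% ± 5.25 (n = 7) and 12.2% ± 8.88 (n = 4, exact permutation p = 0.288). Without null replicate 3, which holds epididymis transcripts, the uterus mean was 10.0% (exact permutation p = 0.192), and the edgeR log2 difference of the pools was 1.28 (SE 0.43, adjusted p = 0.137). *Foxf1* in fibroblasts lay at 5.60% ± 4.71 (n = 7) and 10.6% ± 6.33 (n = 4, exact permutation p = 0.167). This difference rested on single libraries: without wt replicate 5, with 2 positive of 10 barcodes, the uterus mean was 7.49% (exact permutation p = 0.575), and without wt replicate 1, at 15.6% of 32 barcodes, the epididymis mean was 3.93% (exact permutation p = 0.0143).

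**Figure D4:**
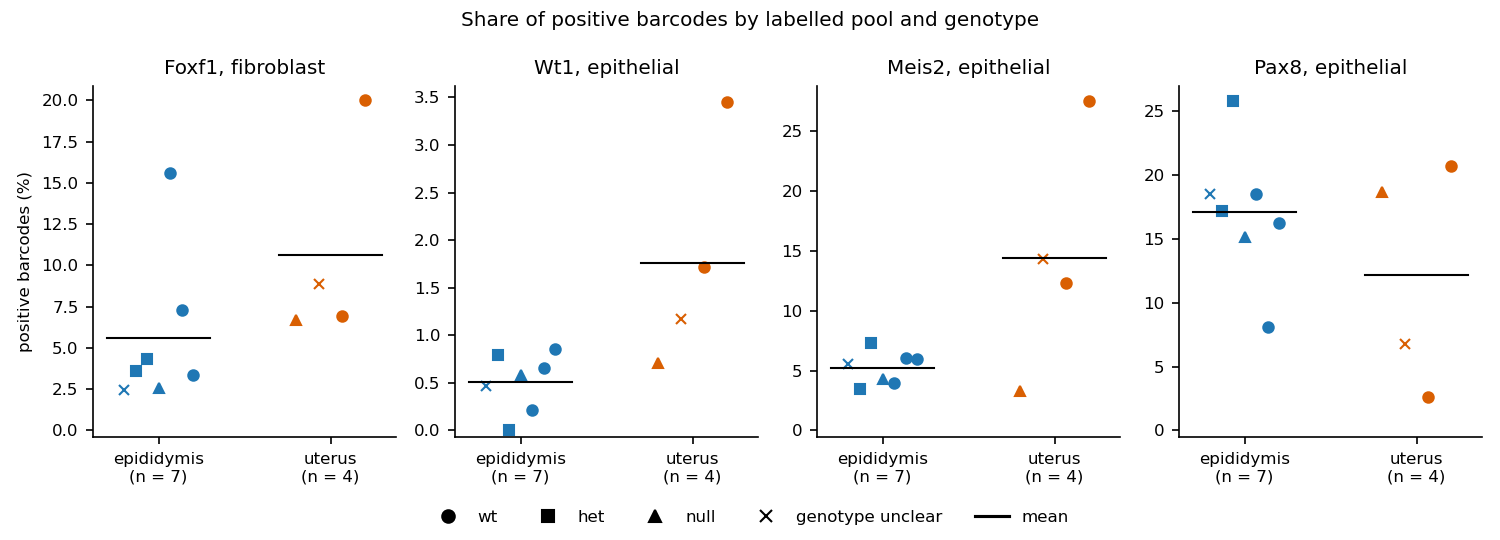
Share of positive barcodes (%) by labelled pool for 4 combinations of gene and class; each point is 1 library with its genotype as symbol, and bars are means. Uterus points for *Meis2* spread from 3.29% (null replicate 3) to 27.6% (wt replicate 5), while the 7 epididymis points lie at 3.47% to 7.27%.

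Genotype was compared over the 9 libraries with a clear label, and no member was called. In the 6 edgeR tests of het or null against wt (fibroblast, endothelial, epithelial), 0% of all genes were called except for null epithelium with 0.171%. Among all genes an unadjusted edgeR p under 0.05 was found for 165 of 5357 in null fibroblasts, the lowest share, to 2855 of 13470 in null epithelium, the highest. Of 36 tests on members 3 had such a p, and DESeq2 called 1. The closest was *Pax8* in null epithelium, at 1.45 (SE 0.38, adjusted p = 0.1), which DESeq2 called at 1.48 (adjusted p = 0.0142) among the 1404 genes it called in that comparison. Without null replicate 3 it lay at 0.99 (SE 0.45, adjusted p = 0.374). The genotypes differed in their epididymis-call barcodes, where *Pax8* was most frequent: these made up 65.4% and 73.3% of null epithelium, 27.6% and 40.0% of het and 22.1%, 4.86%, 9.56%, 0% and 0% of wt replicates 1 to 5. Within that call the *Pax8* share was 19.4% and 23.6% in null and 42.9%, 26.9% and 41.1% in wt replicates 1 to 3, but the null barcodes were shallower (medians of 3042 and 5368 UMIs, against 15915, 8230 and 5988). After thinning the genotypes overlapped, at 7.33% and 4.07% in null and 3.96%, 5.77% and 8.93% in wt. Over all epithelial barcodes its shares overlapped between genotypes, since wt epithelium lay at 2.58% to 20.7% (n = 5), het at 17.2% and 25.8%, and null at 15.1% and 18.7%. *Meis2* in endothelial barcodes was positive in 38.7% to 79.3% of wt libraries, 49.5% and 63.6% of het and 22.6% and 37.8% of null ones, without overlap of wt and null (log2 fold change -0.97, SE 0.34, adjusted p = 0.781; without null replicate 3 -1.12, SE 0.50, adjusted p = 0.721). Lung-call barcodes, in which *Meis2* was less frequent, made up 63.8% and 67.6% of null endothelium and 40.9%, 57.3%, 48.8%, 68.6% and 34.5% of wt replicates 1 to 5. Within the lung call wt lay at 27.1% to 60.0% and null at 19.8% and 27.8%, and after thinning wt lay at 10.0% to 22.2% and null at 14.7% and 15.8%, so that both overlap. The part of the lung fraction in the difference was not tested. Null replicate 3, whose labels are in doubt, is 1 of the 2 null libraries.

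In blood *Gata6* had the most UMIs of the 10 genes. In the 10 ntCZC libraries (2501 barcodes, 13389093 UMIs) *Gata6* had 120 UMIs in 65 barcodes, 8.96 CPM beside 6.98 CPM in tissue. *Meis2* had 7 UMIs, *Wt1* 2 and *Pax8* 1, and *Foxf1*, *Tbx5*, *Gata4*, *Nkx2-1*, *Hoxa10* and *Hoxd10* had 0, which allows up to 0.224 CPM. In PBMC *Gata6* had 1 UMI and the other 9 genes 0, which allows up to 2.11 CPM. By library the share of *Gata6*-positive ntCZC was 0% and 1.30% in wt, 2.52%, 12.1%, 8.54% and 0% in het replicates 1 to 4, and 9.42%, 1.24%, 2.00% and 3.10% in null replicates 1 to 4. The 3 genotypes overlapped.

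The 65 barcodes carried leukocyte transcripts. *Ptprc* was present in 80.0% of them (76.9% of the *Gata6*-negative barcodes) and *Csf1r*, the receptor of macrophage growth factor, in 90.8% (54.5%), while *Epcam*, *Cdh5*, *Col1a2* and *Dcn* were present in none and *Pecam1* in 1. The *Gata6*-negative barcodes were also low in these genes, with 2.01% for *Epcam*, 0.123% for *Cdh5*, 0% for *Col1a2*, 0.0821% for *Dcn* and 8.66% for *Pecam1*. A set of 8 genes known with *Gata6* from peritoneal macrophages was looked up after these values were seen (*Icam2*, *Selp*, *F5*, *Alox15*, *Prg4*, *Timd4*, *Fn1* and *Adgre1*). At least 3 of them were present in 63 of the 65 (96.9%) and in 7.47% of the other ntCZC. *Alox15* was present in 95.4% and 4.60%, and *Timd4* in 78.5% and 2.22%. *Gata6*-positive barcodes were deeper (median 16120 UMIs, others 4017), and the part of depth in these shares was not tested, nor was the identity of these cells.

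**Figure D5:**
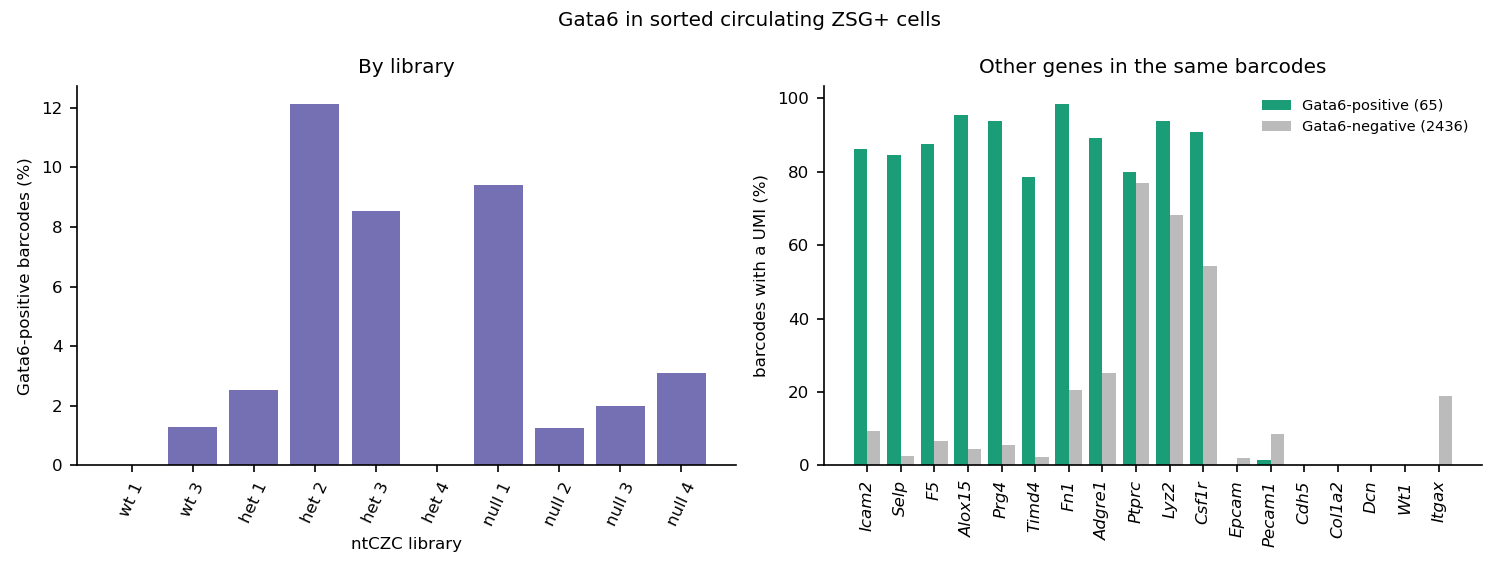
Left, share of *Gata6*-positive barcodes (%) in each of 10 ntCZC libraries, by genotype and replicate; right, share of *Gata6*-positive and *Gata6*-negative ntCZC barcodes (%) with a UMI of 18 other genes. The 8 genes from *Icam2* to *Adgre1* lie at 78.5% to 98.5% in positive barcodes, and *Epcam* and the vessel and fibroblast genes *Cdh5*, *Col1a2* and *Dcn* lie at 0%.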

How the data were processed

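The authors prepared 10x Genomics 3′ v3 libraries, and the deposited matrices hold raw UMI counts per gene and barcode on mm10. Per the submitters' processing notes Cell Ranger 2.1.1 and Seurat were used, whereas the headers of the deposited matrices name version 3.0.2. A barcode needed 200 detected genes and a mitochondrial share of no more than 25%. Of these, the highest-scoring by Scrublet (scanpy 1.11.5) were removed as likely doublets, at 0.8% per 1000 deposited barcodes up to 25%. Counts were summed per library and class (at least 20 barcodes) or organ call (at least 10) and tested with edgeR 4.0.16 (TMM, filterByExpr, quasi-likelihood, Benjamini-Hochberg over all genes, 0.05; R 4.3.3), with library as a term for classes and organ calls and pool as a term for genotype. DESeq2 1.42.0 was an alternative. Shares were compared by exact permutation tests (scipy 1.17.1). Shares carry 95% Clopper-Pearson intervals, and a count of 0 allows 3 counts. Scripts were tested on simulated data. Members and lists were chosen with earlier results of these data known. From the related factors and Hox genes, those with the smallest p in each direction were named. Values of some genes that these rules name are not reported here. Labels do not say whether libraries come from separate animals, so p-values measure the spread between these libraries, which may be technical.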

Additional observations from a re-analysis of the deposited data

Results flagged for a closer look

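*Foxf1* in fibroblasts of the epididymis libraries was high in wt replicate 1, at 15.6% (5 of 32 barcodes), where the other 6 libraries lay at 2.47% to 7.28%. *Gata4* in epithelium of the epididymis libraries was high in het replicate 2, at 6.18% (17 of 275), where the others lay at 0.280% to 2.39%. *Tbx5* in epithelium of the uterus libraries was found in wt replicate 4 alone, at 0.287% (1 of 349), and since the other 3 were at 0, a single positive barcode had to set it apart. These 3 libraries passed the threshold of Dixon's test among 82 groups tested, of which chance gives about 1 in 20. Outside the tissue comparisons, *Gata6* was present in ntCZC at 8.96 CPM, with a positive barcode in 8 of 10 libraries. In the 1 PBMC library it lay at 0.703 CPM, from 1 UMI.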

How the results depend on the processing

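Of 43 results on members, 32 kept their call under every alternative run, and none reversed. Leaving out 1 library kept 431 values on their side of the threshold and weakened 34, and the other alternatives kept 330, weakened 27 and strengthened 3. The cause of the changes below was not tested. Values are counts of genes called, in the order named.

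With DESeq2 the pool comparisons called 3 (fibroblast), 20 (endothelial) and 61 (epithelial), the difference of pool effects between fibroblast and epithelial 12, het against wt 16 (endothelial) and 134 (epithelial), and null against wt 1 (fibroblast), 19 (endothelial) and 1404 (epithelial). With no filter on low counts the pool comparisons called 13 (fibroblast) and 6 (epithelial), the difference of pool effects 11, het 103, 567 and 9, and null 49, 293 and 432 (fibroblast, endothelial, epithelial). Without *Ptprc*-positive barcodes the calls were 2 and 1 (pool, fibroblast and epithelial), 1 (null epithelium) and 1059 (stomach). With all deposited barcodes they were 1 (het epithelium), 4, 1 and 191 (null, by class), 3297 (stomach) and 4002 (kidney). Requiring 3 organ genes gave 1745 (lung) and 130 (kidney). Keeping barcodes of 2 classes gave 9, 13 and 94 for null, and no doublet removal gave 3 (fibroblast) and 106 (epithelial).

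Leaving out 1 library gave 1 to 3 and 0 to 17 for the differences of pool effects (fibroblast against endothelial, against epithelial), 1 to 5 and 2 to 105 for pool (fibroblast, epithelial), each highest without null replicate 3 except the first, which was lowest there. It gave 0 to 1, 0 to 1 and 0 to 2 for het, 0 to 1, 0 to 2 and 1 to 182 for null, 474 to 880 for kidney (lowest without het replicate 1) and 973 to 1980 for stomach (lowest without het replicate 2). The 2 pool comparisons of shares with an unadjusted exact permutation p under 0.05 became 1 over the 9 libraries with a clear genotype and 1 to 3 without 1 library.

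Replicate numbers did not pair the samples (deviations of same-numbered wt and het or null libraries from their group means correlated at -0.328 to 0.0984). A replicate block called 34 (het fibroblast), 97 (null endothelium) and 0 (null epithelium), and *Pax8* in null epithelium lay at 1.05. Low UMI counts limit what can be said of *Nalcn*, *Tbx5*, *Gata4* and *Hoxd10*. For the fibroblasts of wt replicate 5 the limit is the number of barcodes, 10, since their median depth was 6921 UMIs.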
